A study of Oryza sativa with 8 samples.

Results

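The amino acid transporter genes described here are 10 loci of rice, OsATL16 (LOC_Os01g41400), OsATL15 (LOC_Os01g41420) and 8 amino acid permease (AAP) loci. They were taken by their MSU locus identifiers and looked up in the tables of differentially methylated genes (DMGs), which name 19182 loci in all. In these tables, 3 of the 10 loci were found, OsATL16, OsATL15 and the AAP locus LOC_Os01g65660. The other 7 were in none, so that no differentially methylated region (DMR) was listed at them. The tables pair no gene name or function with an identifier, so the family labels could not be checked against them.

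The libraries compared were of the OsNAR2.1 overexpression line Ox1 and its wild type WYG7 (Wuyungeng 7). Each line was grown from parent seed of low (LN) or high (HN) N content, in a field without N fertilizer (NN field, 0 kg N/ha) or with 300 kg N/ha (HN field). All groups share the WYG7 background, and Ox1 carries added OsNAR2.1, a partner of nitrate transporters, under its own promoter. Ox1 is 1 line, and the labels name the tissue as shoot while the methods of the study name leaves of mature plants. DNA methylation was measured by whole-genome bisulfite sequencing in 8 libraries, 1 per combination, which gives 4 comparisons of the LN with the HN library that have no library in common. There was no replicate, so a difference has no replicate error and no test was made. Hyper is read as higher and hypo as lower methylation in the LN library, with HN as the control. The lists give positions and directions without methylation level, coverage or cytosine context, so the depth behind a DMR is unknown.

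Plants carry much of their nitrogen between organs as amino acids, and each step across a membrane needs a transporter. AAPs are proton-coupled importers of amino acids at the cell membrane. Members of the family are known in rice for effects on tillering, grain yield and grain protein. ATL proteins are amino acid transporter-like members of the same wider superfamily, and OsATL15 is known for moving the insecticide thiamethoxam through the rice plant. Methylation near a gene start is often found with low transcription, while methylation inside gene bodies is common in expressed plant genes. The lists hold no expression values. The paper measured some genes by quantitative PCR, and reports OsATL15 in the HN field and OsATL16 in the NN field as up-regulated by hypo-methylation. Those measurements were not analysed here.

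In the NN field, 1 of the 10 loci was listed in Ox1 (LOC_Os01g65660) and 1 in WYG7 (OsATL16). In the HN field, 2 were listed in Ox1 (OsATL16 and OsATL15) and 1 in WYG7 (OsATL16). None of the 10 loci was listed in all 4 comparisons, as were 15.3% of the loci found in any table, and none was listed in both lines in the NN field, as were 25.6%. Of the loci found in any table, 40.9% were listed for Ox1 and 57.0% for WYG7 in the NN field, and 54.9% and 56.0% in the HN field. That background holds only loci listed at least once, and 7 of the 10 loci are not in it. A wider background is the 61923 identifiers ending in 0 up to the highest found on each chromosome, which may include numbers never given to a gene. Of these, 29.3% were in any table. By comparison, the share was 11.9% for Ox1 and 16.7% for WYG7 in the NN field, and 16.1% and 16.4% in the HN field. The 3 of 10 transporter loci in any table are thus near the wider background. However, the paper chose OsATL15 and OsATL16 from its own DMGs, so their listing here was known beforehand. Of the 8 AAP loci, only LOC_Os01g65660 was in any table. The nearness to the background therefore carries no weight.

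**Figure D1:**
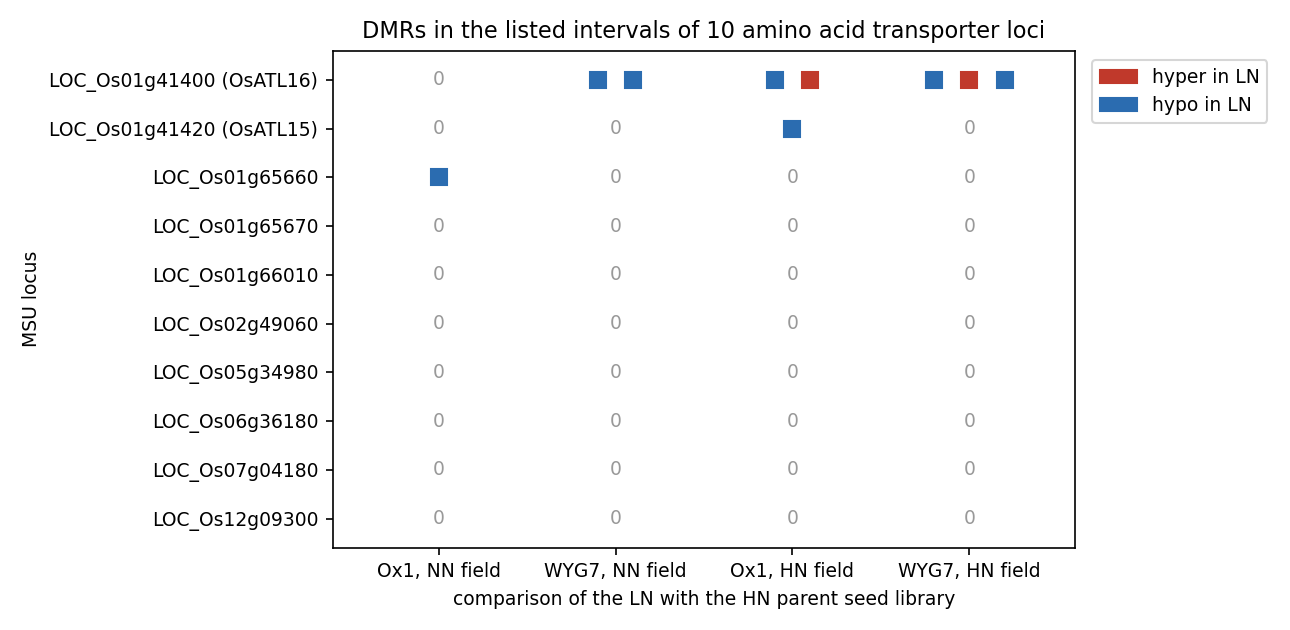
DMRs in the listed interval of each of the 10 loci (rows) in each comparison of the LN with the HN library (columns). Each square is 1 DMR, red for hyper and blue for hypo, and 0 marks a locus with no listed DMR. The 9 DMRs lie in 3 loci, and 7 of them are in OsATL16.

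Across the 3 loci, 9 DMRs were listed, 2 hyper and 7 hypo. They were between 102 and 482 bp long, with a median of 181 bp. In the NN field, the only DMR of the transporter loci in Ox1 was hypo, in a list of which 66.3% was hypo. The 2 DMRs in WYG7 were hypo, against 35.5% of the list. In the HN field, 2 of 3 were hypo in Ox1, against 24.6% of the list, and 2 of 3 in WYG7, against 54.1%. For WYG7 in the NN field and for Ox1 in the HN field, most DMRs of the transporter loci were therefore hypo while most DMRs of the list were hyper. These counts are of 1 to 3 DMRs each, and DMRs of 1 gene are not independent. The lists also hold DMRs outside the listed intervals, and the hypo share inside these intervals alone was not computed.

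The listed interval of OsATL16 (2889 bp, read as the gene with its 1 kb promoter) spans 23438509 to 23441397 on chromosome 1 in the IRGSP-1.0 build. The tables give no strand, and this reading was not checked against a gene annotation. On this reading, the bases from 23439509 to 23440397, more than 1 kb from either end, are gene body whichever end holds the promoter. In Ox1 in the NN field no DMR was listed in the interval. In WYG7 in the NN field, 2 hypo-DMRs were listed, from 23439585 to 23439770 (186 bp) and from 23440024 to 23440173 (150 bp). Both lie in the part that is gene body on either strand, and 253 bases separate them.

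In the HN field, OsATL16 carried DMRs of both directions in both lines. In Ox1 a hypo-DMR ran from 23439693 to 23440174 (482 bp) and a hyper-DMR from 23441106 to 23441382 (277 bp). The hypo-DMR was longer than 88.2% of the DMRs of its list. In WYG7 a hypo-DMR ran from 23439740 to 23439877 (138 bp), a hyper-DMR from 23439913 to 23440093 (181 bp), and a further hypo-DMR from 23441028 to 23441157 (130 bp). DMRs covered 11.6% of the interval in WYG7 in the NN field, and 26.3% in Ox1 and 15.5% in WYG7 in the HN field. Every OsATL16 DMR of WYG7 was shorter than 200 bp, so with DMRs of at least 200 bp only, OsATL16 was listed in Ox1 in the HN field alone.

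**Figure D2:**
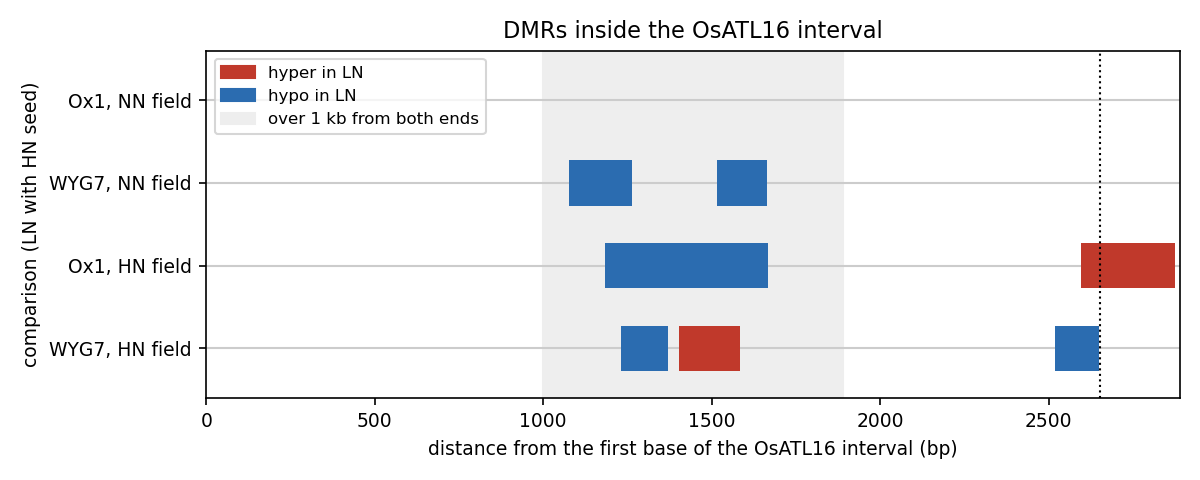
DMRs inside the OsATL16 interval, by distance in bp from its first base, for each comparison of the LN with the HN library. Bars are DMRs to scale, red for hyper and blue for hypo. Grey marks the 889 bp that are over 1 kb from both ends, and the dotted line marks the start of the LOC_Os01g41410 interval. The DMRs form a group in the grey part and a group at the right end, and the row of Ox1 in the NN field is empty.

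The DMRs of OsATL16 fell on the same bases in different comparisons. From 23439740 to 23439770, 31 bp were hypo in 3 comparisons, WYG7 in the NN field and Ox1 and WYG7 in the HN field. Over all listed loci, 916 (4.78%) held a base that was hypo in any 3 of the 4 comparisons, and 256 (1.33%) one that was hypo in these 3. Most of these listed loci were in only 1 comparison (40.1%) or 2 (26.4%), where such a base is hardly possible. The shares are therefore too low as a background for OsATL16, which was listed in 3. The next 107 bp, to 23439877, were hypo in both lines in the HN field. From 23439913 to 23440023, 111 bp were hypo in Ox1 and hyper in WYG7 in that field. From 23440024 to 23440093, 70 bp were hypo in WYG7 in the NN field and in Ox1 in the HN field and hyper in WYG7 in the HN field. At the right end, 52 bp from 23441106 to 23441157 were hyper in Ox1 and hypo in WYG7 in the HN field. Of the 945 bp of the interval in any DMR, 498 bp were in DMRs of 2 or 3 comparisons, of which 265 bp had 1 direction and 233 bp had both.

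Counted as pairs of DMRs that overlap by at least 1 bp, OsATL16 had 7 pairs, 4 of the same and 3 of opposite direction. Between WYG7 in the NN field and Ox1 in the HN field, 2 of 2 pairs had the same direction, against 57.4% of the 9779 pairs in the whole lists. Within WYG7, between the NN and the HN field, it was 1 of 2, against 49.4%. Between Ox1 and WYG7 in the HN field, it was 1 of 3, against 47.6%. The DMRs of OsATL15 and LOC_Os01g65660 overlapped none of another comparison, which held for 37.5% of all DMRs of Ox1 in the HN field and for 30.1% of those in the NN field.

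In WYG7 in the HN field, a hypo-DMR and a hyper-DMR of OsATL16 were 35 bases apart. Neighbouring DMRs of opposite direction were not rare in that list. Of the 2343 neighbours no more than 100 bases apart, 33.0% had opposite directions. With 2 DMRs, OsATL16 was among the 33.1% of DMGs with 2 or more in WYG7 in the NN field, and among the 34.8% in Ox1 in the HN field. With 3 DMRs, it was among the 17.3% with 3 or more in WYG7 in the HN field. DMRs of both directions were found in 16.1% of the DMGs of Ox1 and in 19.1% of those of WYG7 in the HN field. DMGs with 1 DMR, 65.2% in Ox1 and 63.2% in WYG7, cannot hold both directions. The shares with both directions are therefore too low as a background for OsATL16. In all, 1326 loci (6.91%) were listed in the same 3 tables as OsATL16, and 13 of them, OsATL16 included, had the same set of directions in each. The pattern was set by OsATL16 itself, and how rare a typical pattern is was not computed.

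**Figure D3:**
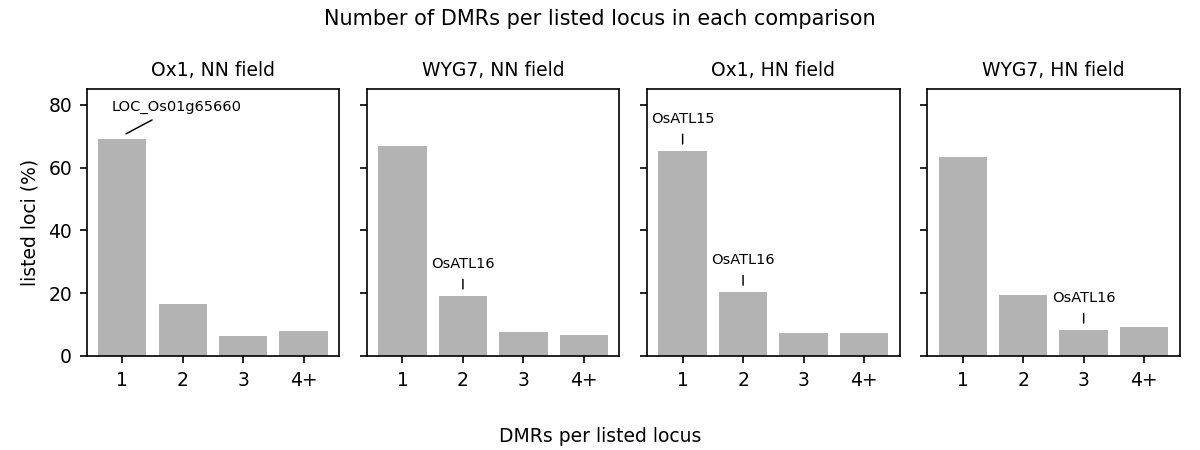
Share of listed loci (vertical axis, %) with 1, 2, 3 or 4 and more DMRs (horizontal axis) in each comparison of the LN with the HN library. Labels point to the bar of each transporter locus. OsATL15 and LOC_Os01g65660 are among the loci with 1 DMR, 65.2% and 69.1% of their tables, and OsATL16 is in the bars of 2 or 3.

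OsATL15 is listed from 23446260 to 23450935 on chromosome 1 (4676 bp), and only in Ox1 in the HN field. Its single DMR was hypo, from 23450580 to 23450782 (203 bp), and ended 153 bases before the end of the interval. This lies in the last 1 kb. With the interval read as for OsATL16, that is promoter if the gene runs to lower positions and gene body if it runs to higher ones. No DMR was listed in its interval in WYG7 in the HN field or in either line in the NN field. In WYG7 in the HN field, a hyper-DMR from 23445315 to 23445415 (101 bp) ended 844 bases before the interval. In all, 2051 loci (10.7%) were listed for Ox1 in the HN field alone, and 249 of them, OsATL15 included, had hypo-DMRs only.

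OsATL16 and OsATL15 are separated on chromosome 1 by 4862 bp and by the identifier LOC_Os01g41410. The span from the first base of OsATL16 to the last of OsATL15, 12427 bp, held no DMR in the NN field in Ox1, against 2 in WYG7. The same span held 3 in Ox1 and 4 in WYG7 in the HN field. Over the genome, windows of the same length with no DMR made up 64.5% for Ox1 in the NN field. Windows with 2 or more made up 21.6% for WYG7 in the NN field, those with 3 or more 10.4% for Ox1 and those with 4 or more 6.72% for WYG7 in the HN field. The span was named for its genes and its DMRs were known beforehand, so these shares only describe it.

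LOC_Os01g41410 is listed from 23441161 to 23442475 and overlaps the OsATL16 interval by 237 bp. It was listed only for Ox1 in the HN field. The hyper-DMR at the right end of OsATL16 in Ox1 overlapped it by 222 bp, so this DMR belongs to both intervals. The hypo-DMR of WYG7 nearby ended 3 bases short of it. Between the end of LOC_Os01g41410 and the start of OsATL15, the only DMR was the hyper-DMR of WYG7 in the HN field from 23445315 to 23445415.

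**Figure D4:**
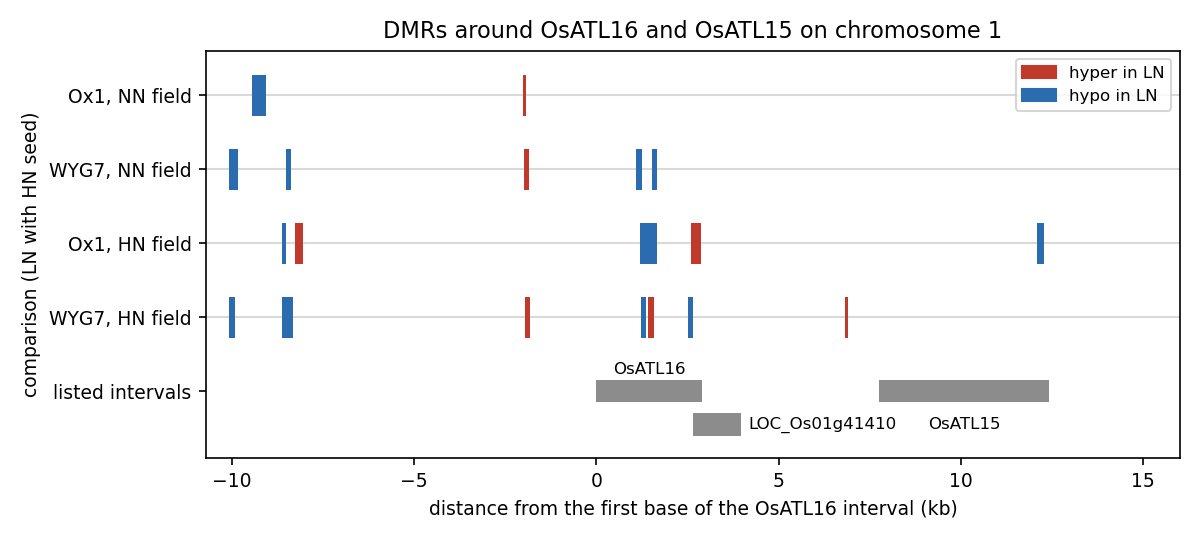
DMRs from 10 kb before OsATL16 to beyond OsATL15, by distance in kb from the first base of the OsATL16 interval, for each comparison of the LN with the HN library. Bars are DMRs, red for hyper and blue for hypo, and grey bars are listed intervals. A red bar just before OsATL16 stands in 3 rows at about the same place, and the blue bars in OsATL16 stand in the 3 rows below the first.

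Before OsATL16, a further place was shared. In the NN field, a hyper-DMR was listed at 23436483 to 23436590 in Ox1 and at 23436531 to 23436663 in WYG7. In the HN field, WYG7 had one at 23436564 to 23436675. The 27 bp from 23436564 to 23436590 were hyper in all of these, and none was listed there for Ox1 in the HN field. Over the whole lists, 339 overlap regions were hyper in the same comparisons. The place was singled out after the lists had been seen, and how often such a region lies near a gene was not computed. The DMRs were 108 bp long in Ox1 and 133 bp in WYG7 in the NN field, and 112 bp in WYG7 in the HN field. None was kept with DMRs of at least 200 bp only. The common 27 bp were less than 50% of each of these DMRs. The last of these DMRs ended 1833 bases before the OsATL16 interval, and no listed locus lies there. In Ox1, the place before the gene had a DMR in the NN field only and the gene itself in the HN field only. In WYG7, the place was hyper in both fields, and within OsATL16 31 bp were hypo in both and 70 bp were hypo in the NN field and hyper in the HN field. Neither overlap within OsATL16 reached 50% of the shorter DMR.

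Among the AAP loci, LOC_Os01g65660 was the only DMG. It is listed on chromosome 1 from 38117301 to 38121760 (4460 bp), and only for Ox1 in the NN field. A single hypo-DMR ran from 38120224 to 38120325. With 102 bp it was near the lower limit of 100 bp found in the lists, and only 0.815% of the DMRs of its list were shorter. It lies more than 1 kb from either end of the interval and so, with the interval read as for OsATL16, in the gene body on either strand. In all, 1019 loci (5.31%) were listed for Ox1 in the NN field alone, and 687 of them had hypo-DMRs only.

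Around the LOC_Os01g65660 interval, distances to the nearest DMRs are given without a background of their own. The whole lists held 0.0530 (Ox1) and 0.0705 (WYG7) DMRs per kb in the NN field, and 0.0685 and 0.0774 in the HN field. In Ox1 in the NN field, the nearest others were 22.8 kb before and 50.2 kb after the interval. In WYG7 in the NN field they were 19.7 kb before and 88.1 kb after it. In the HN field, the nearest DMR before it was 23.7 kb away in Ox1 and 19.6 kb away in WYG7. The nearest DMR after it was hyper in both lines. It ran from 38132021 to 38132227 in Ox1 (10.3 kb away) and from 38132739 to 38132920 in WYG7 (11.0 kb away). The AAP loci LOC_Os01g65670 and LOC_Os01g66010 follow on the same chromosome. Of the 34 identifiers ending in 0 between LOC_Os01g65660 and LOC_Os01g66010, 7 were in any table.

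The 7 AAP loci in no table have no interval in the files, so they were placed only between the nearest listed identifiers on either side. Identifiers followed position for 99.46% of neighbouring listed loci. The stretches between these neighbours were 14.8 to 55.2 kb long. For 3 of the 7, LOC_Os02g49060, LOC_Os07g04180 and LOC_Os12g09300, the stretch held no DMR in any comparison. A stretch between listed neighbours holds no listed interval by construction, and of 4807 such stretches of 14.8 to 55.2 kb over the genome, 28.5% held no DMR. The stretch was shortest for LOC_Os12g09300, 14.8 kb on chromosome 12, and 26.8 kb for LOC_Os07g04180 on chromosome 7, where this locus was the only identifier between its listed neighbours, as LOC_Os12g09300 was between its own. The stretch of LOC_Os02g49060 on chromosome 2 was 55.2 kb long.

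The other 4 stretches held 19 DMRs. That of LOC_Os01g65670 held the 2 hyper-DMRs of the HN field given for its neighbour. That of LOC_Os01g66010 held a hyper-DMR in WYG7 in the NN field, and in the HN field a hyper-DMR in Ox1 and a hypo-DMR in WYG7. That of LOC_Os05g34980 on chromosome 5 held 1 hyper-DMR in Ox1 and 2 in WYG7, all in the HN field. Since the tables do not list these loci, a DMR in such a stretch is not one that the authors assigned to them. A difference under the authors' limits would not appear in the lists.

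The stretch around LOC_Os06g36180, on chromosome 6 from 21158454 to 21195068, held 11 DMRs, 4 hyper and 7 hypo. Windows of this length had a median of 7 DMRs over the 4 comparisons, and 34.3% had 11 or more. Of stretches between listed neighbours within 20% of its length, 6.19% had as many. The NN field gave 2 for Ox1 and 3 for WYG7, and the HN field 3 for each line. Of these, 6 lay in the last 3000 bp before LOC_Os06g36190. From 21192725 to 21192778, 54 bp were in a DMR of every comparison, hypo in Ox1 and WYG7 in the NN field and in WYG7 in the HN field, and hyper in Ox1 in the HN field. At lower positions, from 21179601 to 21179683, 83 bp were hypo in Ox1 in both fields and hyper in WYG7 in the HN field. These bases were singled out after the lists had been seen, and no genome background is given for them. Which gene, if any, lies there was not analysed here.

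**Figure D5:**
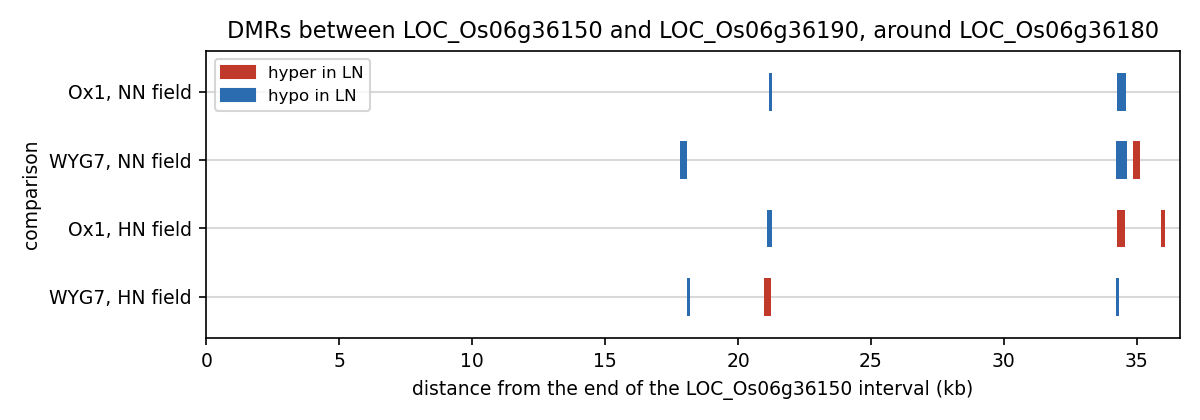
DMRs in the stretch between the listed intervals of LOC_Os06g36150 and LOC_Os06g36190, which by its identifier holds LOC_Os06g36180, by distance in kb from its first base, for each comparison of the LN with the HN library. Bars are DMRs, red for hyper and blue for hypo. All 4 rows have a bar at the right end at the same place, red in Ox1 in the HN field and blue in the other rows.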

How the data were processed

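Clean reads were mapped by the authors with Bismark 0.9.0 against the IRGSP-1.0 build. Per line and field, SMART was then used to call DMRs of LN against HN seed, with limits on coverage, number of cytosines, length, methylation difference and p-value. Genes with a DMR in the body or 1 kb upstream were deposited as DMGs. The deposited columns are positions in bp, with a direction or an MSU identifier. All columns belong to a comparison of 2 libraries.

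Positions were read as counted from 1 with both ends included. Python 3.11.15 and numpy 2.4.6 gave overlaps, lengths and shares, scipy 1.17.1 the Wilson intervals of hypo shares, and matplotlib 3.10.9 the plots. The overlap code was checked against direct counting on simulated intervals. For counts of DMRs per locus, at least 52 bp had to be shared, since no listed locus shared less with its best-overlapping DMR. All 10 members are named, and the members, lists and alternatives were chosen with earlier results of these data known. No test was made and no paired comparison was possible. The wider background, the backgrounds of stretches and the interval without its ends were added after seeing the data. The reference table given is of another assembly and carries no MSU identifiers, so other amino acid transporter genes, cytosine contexts and protein identities were not analysed here, and no sequence is printed.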

Additional observations from a re-analysis of the deposited data

Results flagged for a closer look

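In OsATL16, 3 pairs of DMRs of opposite direction overlapped between comparisons, at 2 places. The difference between these comparisons was not tested, since each is 1 library against 1 library. Between lines in the HN field, 181 bp from 23439913 to 23440093 were hypo in Ox1 and hyper in WYG7. In the same field, 52 bp from 23441106 to 23441157 were hyper in Ox1 and hypo in WYG7. Within WYG7, 70 bp from 23440024 to 23440093 were hypo in the NN field and hyper in the HN field. These 70 bp lie inside the 181 bp and involve the same hyper-DMR of WYG7. Over the whole lists, 52.4% of overlapping pairs between Ox1 and WYG7 in the HN field and 50.6% between the fields of WYG7 had opposite directions, so 2 of 3 and 1 of 2 are near the background.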

How the results depend on the processing

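No paired analysis was possible because each condition has 1 library. No library could be left out for the same reason. Of 84 values under alternatives, 55 stayed within 1.5 times the main count (for hypo shares, within its 95% Wilson interval) and 29 did not. Of the 55, at least 22 could not move, since the main count was 0 and the alternative only removes DMRs, or all DMRs were hypo. Merging DMRs also cannot change a count of 1, and the Wilson intervals rest on few DMRs and are wide. The cause was not tested beyond the construction of each alternative. With DMRs of at least 200 bp only, Ox1 in the HN field kept its 2 listed loci and its 3 DMRs, and every other comparison had 0 listed loci, 0 hypo-DMRs and 0 hyper-DMRs in the transporter loci. The span then held 0 DMRs in WYG7 in either field, and 0 pairs of DMRs overlapped between comparisons. With intervals widened by 2 kb, the NN field had 1 hyper-DMR in Ox1 and 1 in WYG7, and the HN field 3 in WYG7. Without 1 kb at each end, chosen after seeing the data, Ox1 in the HN field had 0 hyper-DMRs and 1 hypo-DMR, and WYG7 1 hypo-DMR. With an overlap of at least 50% of the shorter DMR, pairs numbered 1 between WYG7 in the NN field and Ox1 in the HN field, in the same direction, and 0 between the fields of WYG7. With 10 kb more on each side, the span held 2 DMRs (Ox1) and 5 (WYG7) for the NN field, and 5 (Ox1) and 7 (WYG7) for the HN field. The alternative for other amino acid transporter genes was not run. The depth behind each DMR is unknown.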
